A study of Mus musculus with 24 samples.

Results

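RRBS (reduced representation bisulfite sequencing) reads the methylation of single CpGs in CpG-rich fragments of the genome, and it was applied to micro-dissected dentate gyri of female C57BL/6JRj mice. Young STD mice (n = 8) were 3 months old and housed in standard cages (STD). Both aged groups were 17 months old, and of these, aged STD mice (n = 8) had stayed in standard cages, whereas aged ENR mice (n = 8) had spent the last 3 months in environmental enrichment (ENR). The CpGs described here were chosen by their methylation in the first 4 young STD mice: an autosomal CpG became a member if at least 3 of young STD mice 1 to 4 had a value, all of them exactly 0%, and if at least 3 of young STD mice 5 to 8 had a value of any size. There were 70120 members, which was 38.1% of the 183893 autosomal CpGs with enough values in both sets of young mice and 10.1% of the 694379 CpGs of the table. Young STD mice 1 to 4 only define the members, so their 0% is no finding. All levels given below were measured in the 20 held-out mice, which are young STD mice 5 to 8 and all aged mice, and the young mice of a comparison are mice 5 to 8 unless stated otherwise.

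In mammals most CpGs are methylated, and the exceptions cluster in CpG islands, which are CpG-dense stretches that cover the transcription starts of most housekeeping genes and many developmental genes. DNA methyltransferases add the methyl group, TET enzymes start its removal, and proteins with a CXXC domain such as KDM2A bind unmethylated CpGs. Gain of methylation at islands and loss elsewhere are widely described features of aging tissues. The tissue was taken in bulk, so a change in the share of a cell type and a change of the level within its cells cannot be told apart.

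The members lay where unmethylated CpGs are known to lie. A transcription start of the GENCODE M21 annotation was within 1 kb for 80.03% of the members, which was called the promoter here, against 20.6% of the other CpGs with enough values. Introns held 7.94% of the members, intergenic positions 8.63% and exons 3.40%, and the median distance to the nearest start was 252 bp against 8766 bp. Within 100 bp on either side of the CpG, the median GC content was 61.2% in members and 49.3% in the others, and the median ratio of observed to expected CpGs was 0.760 against 0.428. A window with at least 50% GC and a ratio of at least 0.6, called island-like here, surrounded 67.2% of the members and 15.4% of the others. The CpGs that were at exactly 100% in young STD mice 1 to 4, 35581 in number, lay at promoters in 9.47% and in island-like windows in 10.99%. The GC box GGGCGG, the motif of SP family factors, was present on either strand of the window in 36.3% of the members, 9.23% of the other CpGs and 4.99% of the fully methylated ones. The promoters of 8255 genes held a member.

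These 5 windows show what the members looked like in sequence, from the plus strand of mm10 (GRCm38), with the CpGs of the members in capitals. The Gucy1b1 window is shown because its 1-kb tile had one of the largest group differences at promoters, and the Atp6v1b2 window because it lay away from starts and was above 0 in most aged mice. The other 3 are single members with high values in held-out mice, and they lay in sequence with few CpGs. The Nuak1 and Plekha7 windows were chosen after their values were seen.
Gucy1b1, chr3:82073887-82073979, 11 members: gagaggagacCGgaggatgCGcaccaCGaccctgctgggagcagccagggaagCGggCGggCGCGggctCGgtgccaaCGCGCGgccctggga
Atp6v1b2, chr8:69121593-69121660, 5 members: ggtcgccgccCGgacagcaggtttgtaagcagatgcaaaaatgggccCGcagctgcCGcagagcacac
Gm24932, chr7:107341699-107341819, 1 member: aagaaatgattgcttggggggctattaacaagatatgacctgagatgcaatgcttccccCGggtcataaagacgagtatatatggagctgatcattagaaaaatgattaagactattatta
Nuak1, chr10:84439703-84439823, 1 member: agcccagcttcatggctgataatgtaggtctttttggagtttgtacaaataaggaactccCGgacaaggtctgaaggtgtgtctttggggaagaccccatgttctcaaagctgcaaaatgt
Plekha7, chr7:116265190-116265310, 1 member: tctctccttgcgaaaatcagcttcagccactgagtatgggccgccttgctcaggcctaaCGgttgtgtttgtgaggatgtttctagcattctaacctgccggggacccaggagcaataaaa

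Most members had low values in the held-out mice as well. Of the 70120 members, 47820 (68.2%) were below 25% in every held-out mouse with a value, and 34189 (48.8%) were at 0% in all of them. A further 12904 members reached 25% in only 1 held-out mouse, and 1396 reached it in 5 or more. Among the 2541 members with a value in all 20 held-out mice, 1798 never reached 25% and 658 were at 0% throughout. Had young STD mice 5 to 8 been used to choose, 66323 CpGs would have been members, and 55924 CpGs were members under both choices, which was 79.8% of the first set and 84.3% of the second.

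**Figure D1:**
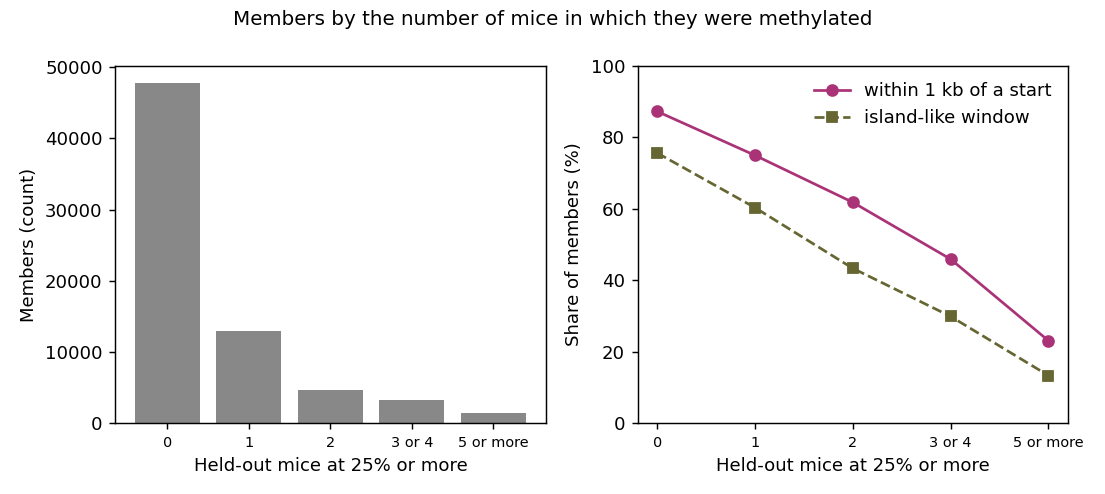
The left panel counts the members by the number of held-out mice in which they were at 25% or more, and the right panel gives the share within 1 kb of a start and the share in an island-like window. The promoter share fell from 87.2% of the members that never reached 25% to 23.1% of those that reached it in 5 or more mice.

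Promoter and island-like shares fell step by step with the number of held-out mice in which a member reached 25%. For members that did so in 1, in 2, in 3 or 4, and in 5 or more mice, the promoter share was 74.9%, 61.8%, 45.9% and 23.1%, and the island-like share was 60.3%, 43.4%, 29.9% and 13.4%. Those that never did so lay at promoters in 87.2% and in island-like windows in 75.6%, with a median distance to the start of 200 bp. Those that reached it in 5 or more held-out mice had a median distance to the start of 5960 bp and a median GC content of 50.7%. They had a similar number of values, with a median of 16 mice against 15. The GC box was near 8.02% of them. In sequence and position these 1396 members were close to the CpGs that were not members.

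The mean methylation of the members was on average within the range of the held-out young mice in aged STD mice, and below that range in aged ENR mice. In young STD mice 5 to 8 it was 2.76%, 2.93%, 2.58% and 3.20%, a mean of 2.87% ± 0.26 (SD, n = 4). In aged STD mice the lowest was 2.30%, the median 2.78% and the highest 3.15%, and their mean was 2.76% ± 0.23 (SD, n = 8). In aged ENR mice the lowest was 2.27%, the median 2.46% and the highest 2.59%, and their mean was 2.45% ± 0.11 (SD, n = 8). The aged STD mice covered nearly the same range as the young mice, while all but 1 of the aged ENR mice were below each of the 4 held-out young mice. The difference was -0.11 points for aged STD minus held-out young STD, -0.42 points for aged ENR minus held-out young STD and -0.31 points for aged ENR minus aged STD, beside a pooled SD of 0.20 points within groups. Over all 183893 CpGs with enough values the means were 42.4%, 40.8% and 40.3% in held-out young, aged STD and aged ENR mice, so that a lower level in aged ENR than in young mice was also present there. Each aged ENR mouse (38.99% to 41.2%) was below each young mouse (41.4% to 43.8%), while the aged STD mice ranged from 27.8% to 45.7% with a median of 42.3%. The aged STD mean was set by replicate 5 at 27.8%, as each of the other 7 was at 41.7% or more and above every aged ENR mouse, so no order is read from it. With 1-kb tiles weighted equally the differences over the members were -0.57, -1.09 and -0.52 points. For aged STD minus held-out young STD the sign depended on the members and on single mice: it was 0.06 points over the 2541 members with a value in every held-out mouse, 0.10 points when young STD mice 5 to 8 chose the members, 0.0032 points without young STD replicate 8 and -0.20 points without young STD replicate 7. For aged ENR minus held-out young STD it was -0.14 points when young STD mice 5 to 8 chose the members. As the members were picked with results of these data known, no p-value is given for values over all members.

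The share of members at 25% or more was 4.46% ± 0.47 for held-out young mice (SD, n = 4), 4.05% ± 0.59 for aged STD mice (SD, n = 8) and 3.57% ± 0.32 for aged ENR mice (SD, n = 8). The ranges overlapped, with 3.84% to 4.98%, 3.11% to 5.21% and 3.18% to 3.94%. The differences from young mice moved with the choice and weighting of members: aged STD minus held-out young STD was 0.23 points over the members with a value in every held-out mouse, and with 1-kb tiles weighted equally it was -1.17 points for aged STD and -1.92 points for aged ENR mice, against -0.41 and -0.89 points. At a threshold of 10% aged ENR minus aged STD was 0.0032 points, but there the 3 mice with the most covered CpGs had the highest shares, 9.40% in aged STD replicate 6 and 9.01% and 9.48% in aged ENR replicates 4 and 8, against 7.95% or less in every other held-out mouse. Near misses, the 5449 CpGs with a mean above 0 and at most 5% in young STD mice 1 to 4, lay just outside the rule, and in held-out mice their mean methylation was 8.30%, 6.92% and 6.44% in the same group order. The CpGs at 100% in the defining mice had means of 94.1%, 93.9% and 94.2%, where aged STD replicate 5 was at 90.7% and the other 7 aged STD mice at 94.2% to 94.7%, so that this order too rests on 1 mouse.

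**Figure D2:**
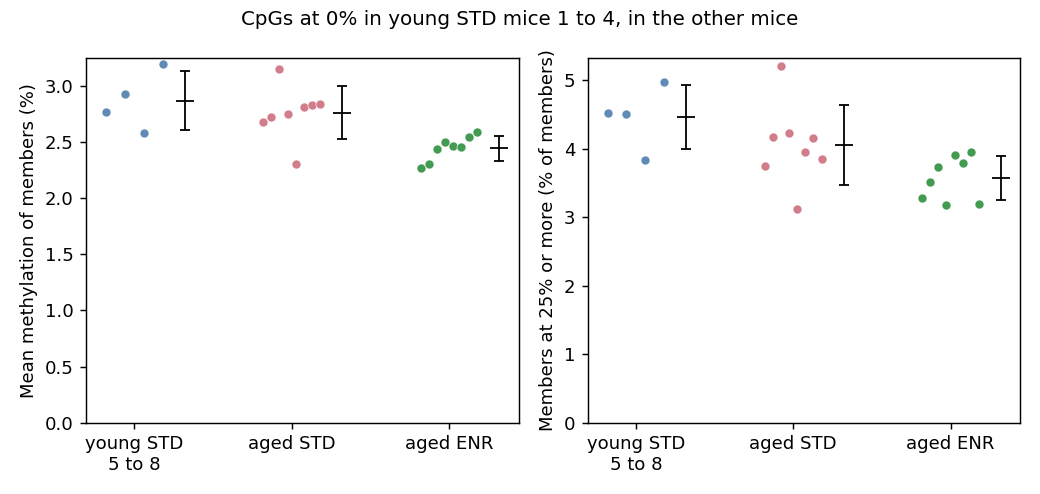
Each point is a held-out mouse, with the mean methylation of the members in percent on the left and the share of members at 25% or more on the right, and the bars are group means with SD. Aged STD mice (2.30% to 3.15%) overlap young STD mice 5 to 8 (2.58% to 3.20%), and aged ENR mice (2.27% to 2.59%) lie at the lower end.

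Read numbers per CpG were not used here, and coverage was judged from the number of autosomal CpGs with a value, which was 298763 to 588869 per held-out mouse. Aged STD replicate 6, aged ENR replicate 4 and aged ENR replicate 8 stood apart with 569164 or more covered CpGs: 14.3%, 14.4% and 15.4% of their members were above 0, against 4.57% to 10.4% in the other 17 mice. The same 3 mice had the fewest members at 90% or more, 0.172%, 0.0938% and 0.0988%. Their share at 25% or more, 3.95%, 3.18% and 3.19%, was within the range of the other mice. Without these 3 mice the differences in mean methylation were -0.11, -0.45 and -0.34 points in the order given above. Shares above 0 were thus highest in the mice with the most covered CpGs and were not compared between groups.

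**Figure D3:**
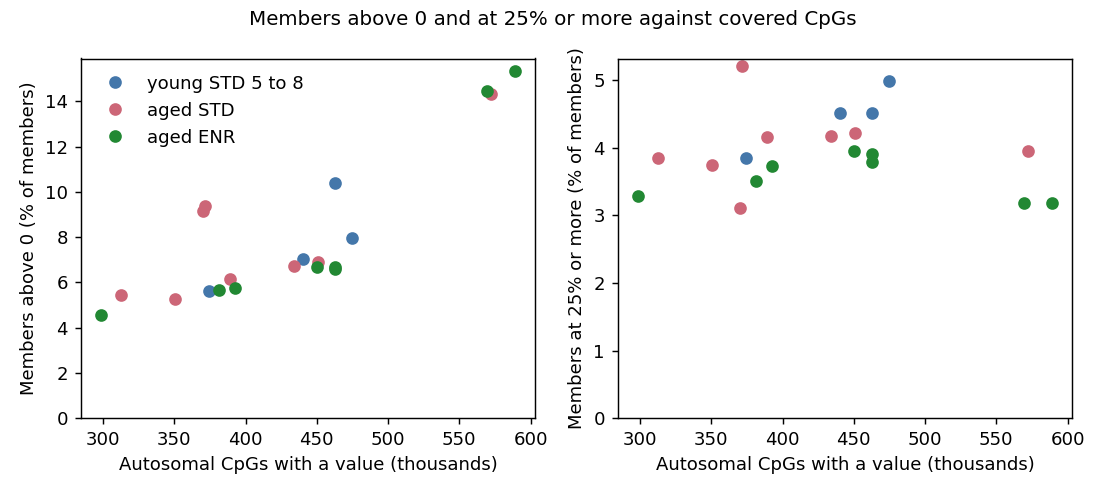
Each point is a held-out mouse, with its autosomal CpGs with a value in units of 1000 on the x axis and the share of members above 0 (left) or at 25% or more (right) in percent on the y axis. The 3 mice with the most covered CpGs have 14.3% to 15.4% of members above 0, and their shares at 25% or more are 3.18% to 3.95%.

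Promoter members were lower and more even than the others. Their mean methylation was 1.81% ± 0.10 for held-out young mice (SD, n = 4), 1.88% ± 0.07 for aged STD mice (SD, n = 8) and 1.66% ± 0.07 for aged ENR mice (SD, n = 8), over 56118 members. Every aged ENR mouse (1.53% to 1.73%) was below every aged STD mouse (1.76% to 1.96%), and the young mice (1.70% to 1.94%) overlapped both. The difference between aged ENR and aged STD was -0.22 points, and it was -0.20 to -0.24 points when each aged mouse was left out in turn and -0.25 points without the 3 mice of highest coverage. This stratum was singled out after its values were seen.

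Outside promoters the levels were several times higher, and the young mice were highest. Members in introns had a mean of 8.46% ± 1.05 for held-out young mice (SD, n = 4), 6.99% ± 0.98 for aged STD mice (SD, n = 8) and 6.20% ± 0.64 for aged ENR mice (SD, n = 8), and the aged ENR mice (5.27% to 7.02%) did not overlap the young mice (7.35% to 9.65%). Intergenic members had means of 6.65%, 6.12% and 5.42% in the same order, and the highest of the aged ENR mice (5.02% to 5.80%) was level with the lowest of the young mice (5.80% to 7.55%). Exonic members, with 5.10%, 4.86% and 4.57%, overlapped in all groups. The level followed CpG density: in 4 equal classes of members, from the lowest to the highest ratio of observed to expected CpGs, the held-out young mean was 6.12%, 2.40%, 1.61% and 1.32%, the aged STD mean 5.51%, 2.41%, 1.69% and 1.38%, and the aged ENR mean 4.87%, 2.20%, 1.46% and 1.23%. In the lowest class aged STD was below the young mean, and in the other 3 classes it was above it by at most 0.083 points, with overlapping ranges throughout.

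**Figure D4:**
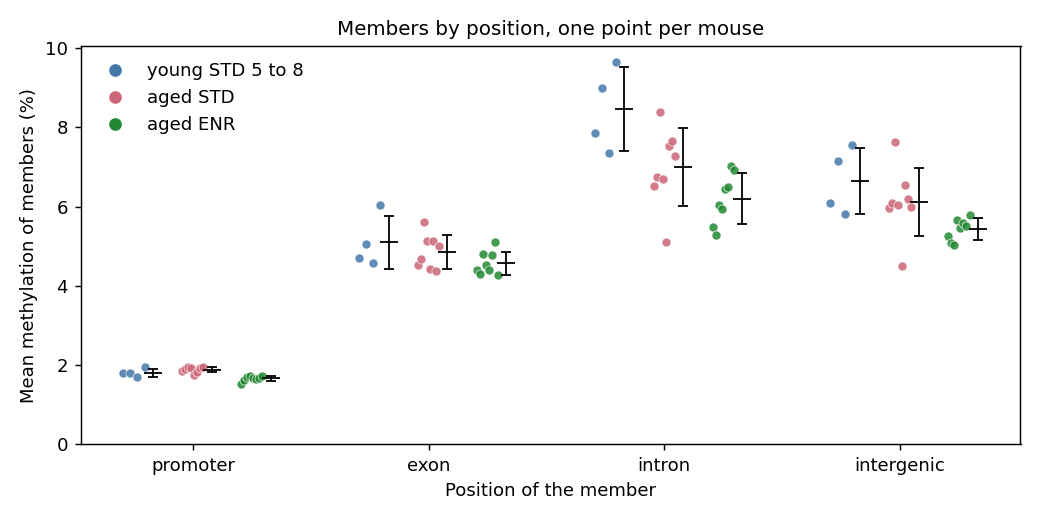
Mean methylation of the members in percent, one point per held-out mouse, by the position of the member on the x axis, with group means and SD as bars. Promoter members lie between 1.53% and 1.96% in every mouse, and intronic members between 5.11% and 9.65%.

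A member at 25% or more had a neighbor at that level more often than a member below 25% did, but in a minority of cases. When a member was at 25% or more in a mouse, the next member on the same strand within 50 bp was at 25% or more in 21.8% ± 2.9 of cases in held-out young mice (n = 4), 17.3% ± 3.4 in aged STD mice (n = 8) and 17.1% ± 2.0 in aged ENR mice (n = 8), each with its SD. When it was below 25%, the neighbor was at 25% or more in 2.24%, 2.23% and 1.93% of cases. Such neighbors share the same sequenced fragments. The opposite strand of the same CpG is read from other molecules, and both strands were members at 2762 CpGs. There, the second strand was at 25% or more in 8.17% of cases in young, 5.95% in aged STD mice and 2.80% in aged ENR mice when the first was, and in 2.44%, 2.12% and 1.84% when it was not. With 12 to 58 such cases per mouse, the values of single mice ranged from 0% to 17.2%.

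Single CpGs were compared with limma over all 259187 CpGs whose held-out values were not all the same, 35930 of them members. This leaves out the 34189 members at 0% in every mouse and a single other member, so the tested members are not all members. For aged STD minus held-out young STD, 11 members (0.0306% of those tested) passed an adjusted p of 0.05 (Benjamini-Hochberg), against a background of 0.0367% of all CpGs tested. All 11 were lower in aged STD mice, where the background was 0.0228%. For aged ENR minus held-out young STD, 12 members (0.0334%) passed, against 0.0367% of all CpGs, and all 12 were lower in aged ENR mice, with a background of 0.0247%. For aged ENR minus aged STD no member passed in limma, against 0.0054% of all CpGs. No member passed as higher in an aged group than in the held-out young mice in this fit, while 1 did so without aged STD replicate 4 (in both contrasts), without aged STD replicate 6 (aged STD) and without aged ENR replicate 5 (aged STD). The fit was tried on each CpG's values shuffled among held-out mice, with 50 points added in aged STD mice at 200 members. For aged STD minus held-out young STD it called 133 of these 200, and it made 79 false calls at other CpGs. The real contrast had 95 calls over all CpGs. More calls were thus false than a threshold of 0.05 allows, and the adjusted p-values of the CpGs below are too small. On the arcsine square root scale 4 and 3 members passed, so that 7 of the calls were kept and 16 lost.

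At an unadjusted p under 0.05 the share of members that were higher was below the background in each contrast. The shares lower than in young mice were near, above or below it, depending on the fit. In aged STD against held-out young STD mice, 124 members (0.345%) were higher and 891 (2.48%) lower, beside a background of 1.77% higher and 2.33% lower. In aged ENR against held-out young STD mice, 68 (0.189%) were higher and 963 (2.68%) lower, beside 1.62% and 2.52%. Both contrasts share the 4 young mice, and leaving out any 1 of these moved the counts the same way, so the shift is not tied to a single mouse. Then only 19361 to 24181 members were tested, and 42 to 48 were higher and 677 to 841 lower in aged STD mice. In aged ENR mice 22 to 29 were higher and 723 to 908 lower. In each of these fits the share of members that were lower than in young mice exceeded that of all CpGs, as without young STD replicate 8, where 733 of 20396 members and 3235 of all 133166 CpGs were lower in aged STD mice. In aged ENR against aged STD mice, 149 (0.415%) were higher and 256 (0.712%) lower, beside 1.2% and 1.55%. This split depended on which group lost a mouse: without 1 aged ENR mouse 164 to 205 were higher and 183 to 212 lower, and without 1 aged STD mouse 98 to 122 were higher and 284 to 343 lower. No direction is read from it. The young mice were 4 against 8 in each aged group, so none is read from the splits against young mice either.

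The members that passed had values in young STD mice 5 to 8 that were far from those of mice 1 to 4, which were at 0% by the rule. The CpG nearest to Gm24932, an intergenic CpG at chr7:107341759, was at 100% in all 3 held-out young mice with a value, at 0% in all 4 aged STD mice, and at 29.4%, 0%, 0% and 0% in aged ENR mice. Its difference was -100 points (SE 6.82, adjusted p = 0.00242, limma) for aged STD and -92.6 points (SE 6.82, adjusted p = 0.00361, limma) for aged ENR mice. The held-out young mice did not overlap the aged mice there, while young STD mice 1 to 4 were at 0% like most aged mice. The intronic CpG nearest to 1700069L16Rik (chr5:113709609) was at 78.6%, 100%, 100% and 100% in young mice, at 0% in 3 aged STD mice, and at 0%, 0%, 0% and 43.6% in aged ENR mice. The intergenic CpG nearest to Gm26307 (chr16:74645146) was at 100% in 3 young mice and between 0% and 45.5% in all 9 aged mice with a value.

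Other members that passed were at promoters. In Trhde, which encodes the enzyme that degrades thyrotropin-releasing hormone, the member at chr10:114800832 was at 79.5%, 100% and 50% in young mice, at 0% to 5.56% in 6 aged STD mice and at 0% to 28.3% in 5 aged ENR mice. The adjusted p was 0.0140 for aged STD and 0.0348 for aged ENR mice (limma). The member at the promoter of AC061963.1 (chr9:44878439) was at 60%, 66.7% and 100% in young mice, at 0% in 6 aged STD mice and at 0% to 21.1% in 5 aged ENR mice. At both CpGs the held-out young mice were above all aged mice, the 2 aged groups overlapped, and the defining young mice with a value were at 0%, level with most aged mice. On the arcsine square root scale the calls at Trhde, Gm26307 and 1700069L16Rik were lost in both contrasts, that at AC061963.1 was lost for aged ENR mice, and those at Gm24932 were kept.

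The next 4 members also passed and were picked out after their values were seen. Nuak1 encodes an AMPK-related kinase involved in axon branching, and its member at chr10:84439763, 834 bp inside the gene, was at 21.4%, 29.5%, 30.9% and 39.1% in young STD mice 5 to 8. It was at 0% in all but 1 of 7 aged STD mice, which had 15.5%, and at 0% to 4.19% in 7 aged ENR mice (adjusted p = 0.00369 and 0.00284, limma). In Max, the dimerization partner of MYC, the member at chr12:76961609 was at 31.8%, 30.0% and 29.2% in young mice, at 0% to 17.4% in 8 aged STD mice and at 0% to 8.70% in 8 aged ENR mice (adjusted p = 0.0136 and 0.00861, limma). Lgi1 encodes a secreted synaptic protein whose loss causes epilepsy, and its intronic member at chr19:38271403 was at 68.8%, 52.2% and 24.1% in young mice and at 0% in 7 aged STD and 6 aged ENR mice (adjusted p = 0.0109 and 0.0127, limma). Atp1b1 encodes a subunit of the sodium pump, and its promoter member at chr1:164458180 was at 36.4%, 61.8% and 100% in young mice, at 0% to 12.5% in 6 aged STD mice and at 0% in 6 aged ENR mice. At each of these 4 CpGs the lowest held-out young mouse was above the highest aged mouse, whereas those of young STD mice 1 to 4 with a value were at 0% by the rule. On the arcsine square root scale the calls at Nuak1 and Lgi1 were kept in both contrasts, and those at Max and Atp1b1 were lost.

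The number of members called depended on single mice and on the fit. Leaving out each mouse in turn gave 3 to 18 called members for aged STD and 4 to 19 for aged ENR against young mice, with 3 and 4 without young STD replicate 6, 5 and 6 without young STD replicate 8, and 18 and 19 without young STD replicate 7. When young STD mice 5 to 8 chose the members and mice 1 to 4 were held out, 3 and 2 members passed, again all lower in aged mice. With at least 4 mice per group 16006 members were tested and 1 and 1 passed, and with CpGs of no spread kept 7 and 7 passed.

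A few members had the opposite pattern or no relation to age, and all of those named in this paragraph were picked after their values were seen. In 31 members the level was 25% or more in at least 3 aged STD and at least 3 aged ENR mice and in no held-out young mouse, and in 24 members it was 25% or more in at least 3 held-out young and in no aged mouse. These were 0.0442% and 0.0342% of the members. How often all CpGs with enough values showed either pattern was not counted, so neither is read as a trait of the members. The first pattern can draw on 16 aged mice and the second on 4 young ones, so the counts are not to be set against each other. In Rapgef4, which encodes the cAMP sensor EPAC2, the promoter member at chr2:72054235 was at 0% in 3 young mice, at 0% to 100% in 8 aged STD mice, 4 of them at 25% or more, and at 39.6% to 100% in all 6 aged ENR mice. In Nrg1, the gene of the growth factor neuregulin, the member at chr8:31917400 was at 24.5%, 0% and 0% in young mice, at 43.2%, 100%, 62.1% and 100% in aged STD mice and at 0%, 45.7%, 41.4%, 0% and 28.4% in aged ENR mice. In Adam33, a metalloprotease gene, the member at chr2:131055016 was at 0%, 9.68% and 0% in young mice, at 81.0%, 100%, 97.8% and 87.5% in aged STD mice and at 0%, 28.6%, 95.8%, 0% and 34.8% in aged ENR mice. The aged STD mice were above the young mice in Nrg1 and Adam33, while the adjusted p for this contrast was 0.62 and 0.46 (limma). In Plekha7, which encodes a protein of adherens junctions, the member at chr7:116265250, at -822 bp from a start, was at 0% in the 3 defining mice with a value and at 100% in all 9 held-out mice with one. It was the only member with a single nonzero value throughout and could not enter the fit.

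At 240 members the group mean was 25% or more in all 3 groups, so that the 0% of mice 1 to 4 did not describe the other mice. Their windows had a median GC content of 50.2%, and 15.0% of them were at promoters. Of the 23 with a value in at least 18 held-out mice, the exonic member of Fos, an activity-induced transcription factor, had means of 41.7%, 48.1% and 35.0% in held-out young, aged STD and aged ENR mice. The promoter member of Src, a tyrosine kinase gene, had 39.8%, 39.9% and 26.7%, and both had mice at 0% in every group. These genes were chosen after their values were seen.

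To look at regions rather than single CpGs, methylation was averaged over 1-kb tiles with at least 3 CpGs in a mouse. A member tile held at least 5 members, and at least 80% of its CpGs with enough values were members. There were 4382 member tiles with 40101 members, 3884 of them at promoters, and 4352 could be tested among 45272 tiles. No member tile passed an adjusted p of 0.05 in limma in any contrast. The background was 0.0155% of all tiles for aged STD minus held-out young STD, 0.0133% for aged ENR minus held-out young STD and 0.00221% for aged ENR minus aged STD. At an unadjusted p under 0.05, 22 member tiles (0.506%) were higher and 99 (2.27%) lower in aged STD than in held-out young mice, beside 2.04% and 2.91% of all tiles. For aged ENR against held-out young mice these were 12 (0.276%) and 109 (2.50%), beside 1.76% and 3.32%, and for aged ENR against aged STD mice 32 (0.735%) and 42 (0.965%), beside 1.53% and 2.15%. The shares of member tiles were smaller than those of all tiles in both directions and in each contrast. Leaving out any 1 young mouse moved the counts against young mice the same way. Then 3838 to 3995 member tiles were tested, and 10 to 16 were higher and 111 to 136 lower in aged STD mice. The share that was lower exceeded that of all tiles without young STD replicate 5, 6 or 8. For aged ENR against held-out young mice it did so without young STD replicate 6.

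The tiles named below are those with the largest differences at an unadjusted p under 0.05, and none passed the adjusted threshold. In Gucy1b1, which encodes the β subunit of the nitric oxide receptor guanylate cyclase, the tile with 11 members was at 0.57%, 0% and 0% in young mice, at 17.96%, 2.48% and 9.09% in the 3 aged STD mice with a value, and at 0% to 0.29% in 6 aged ENR mice. The aged STD mice were apart from both other groups. The difference was 9.65 points (SE 3.09, adjusted p = 0.79, limma) from young STD and -9.79 points (SE 2.68, adjusted p = 0.96, limma) for aged ENR minus aged STD. In Dazl, which encodes an RNA-binding protein of germ cells, the tile was at 0% in 3 young mice, at 0% to 25% with a median of 5.12% in 7 aged STD mice and at 0% to 4.74% with a median of 0% in 8 aged ENR mice (adjusted p = 0.97 for aged STD against young mice, limma). The tile was at 0% in 2 of the aged STD mice, so the groups overlapped.

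In Slc6a5, which encodes the glycine transporter of inhibitory nerve endings, the tile at the promoter was at 0% in 4 young and 7 aged STD mice and at 1.43% to 19.9% with a median of 6.05% in 8 aged ENR mice. All 8 aged ENR mice were above all other held-out mice. The difference was 7.97 points (SE 2.62, adjusted p = 0.80) from young STD and 7.97 points (SE 2.22, adjusted p = 0.96) from aged STD mice in limma. In Slc30a6, a zinc transporter gene, the promoter tile was at 16.7%, 16.7% and 0% in young mice and at 0% in 4 aged STD and 8 aged ENR mice. It had the smallest adjusted p of the named tiles, 0.49 for aged ENR minus held-out young STD (limma).

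**Figure D5:**
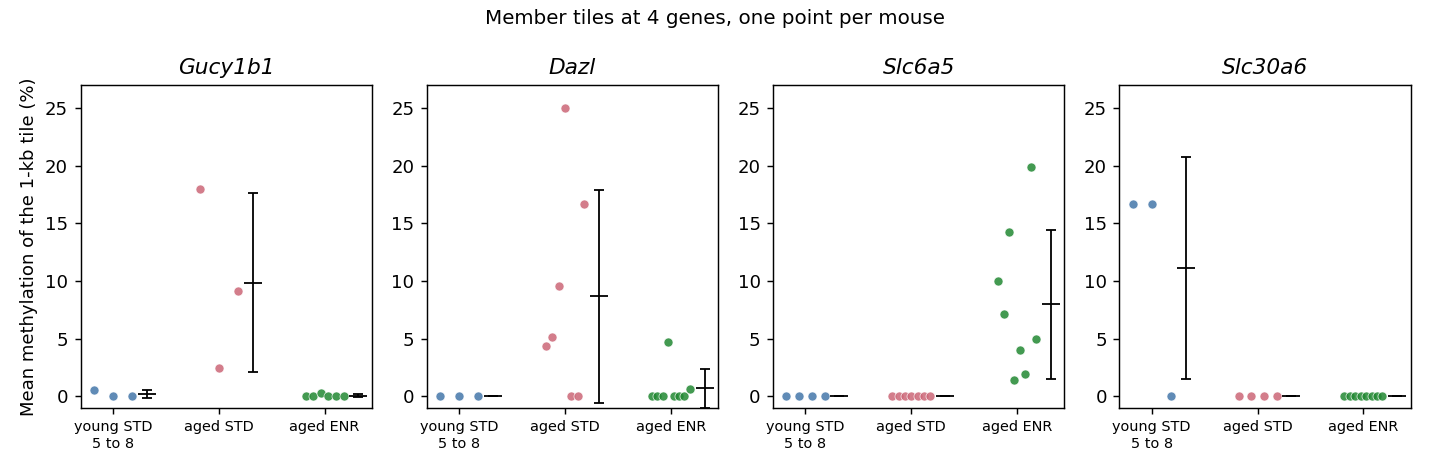
Mean methylation in percent of the member tiles at Gucy1b1, Dazl, Slc6a5 and Slc30a6, one point per held-out mouse, with group means and SD as bars. Slc6a5 is at 0% in all young and aged STD mice and at 1.43% to 19.9% in aged ENR mice, and no tile passed the adjusted threshold.

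Other tiles with a higher mean in aged STD than in held-out young mice lay at genes of varied function. At Atp6v1b2, a subunit of the vacuolar proton pump, the tile 18551 bp downstream of a start and outside annotated genes had means of 0.09%, 6.81% and 4.45% in held-out young, aged STD and aged ENR mice, and 7 of 8 aged STD mice were above all held-out young mice. Pds5a, a cohesin regulator, had 0%, 7.88% and 2.62%. Ccng2, the gene of cyclin G2, had 1.13%, 7.08% and 1.75%. Epop, which encodes a partner of Polycomb complexes, had 2.71%, 9.45% and 6.62%. Such tiles were also nearest to Gm3764, Gm12606 and Mir7680.

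Tiles with a lower mean in aged than in held-out young mice included those at 4 promoters. Pdgfa, the gene of a platelet-derived growth factor, had means of 14.2%, 3.79% and 4.73% in held-out young, aged STD and aged ENR mice. Osbpl8, a lipid transfer protein gene, had 10.7%, 0.70% and 0.77%, and Elmo2, which takes part in Rac activation, had 12.4%, 1.08% and 1.12%. Grm8, a metabotropic glutamate receptor gene, had 16.9%, 5.29% and 0.16%. Such means often rested on 1 young mouse: the highest young value was 37.2% at Elmo2, against a median of 6.20%, and 50.3% at Grm8, against a median of 8.74%.

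The named tiles of aged ENR against aged STD mice lay at genes of varied function. Esrrb, an orphan nuclear receptor gene, had 3.66% in held-out young mice, 8.28% in aged STD mice and 1.59% in aged ENR mice, with a difference of -6.69 points (SE 1.87, adjusted p = 0.96, limma) for aged ENR minus aged STD. Neurod2, a neuronal transcription factor gene, had 1.23%, 6.51% and 0.13%, and the aged STD mean included a mouse at 24.8%. Ptk2b, which encodes a calcium-activated tyrosine kinase, had 5.38%, 7.91% and 0.77%. Higher means in aged ENR than in aged STD mice were found at Dmrt1, a regulator of testis development (4.25%, 0.82% and 6.09%), at Foxn3, a forkhead factor gene (5.71%, 3.77% and 9.97%), and at Col9a3, a collagen gene (12.6%, 4.74% and 12.6%). The highest aged ENR mouse was at 21.2% in Dmrt1 and at 28.0% in Col9a3. Leaving out each mouse in turn gave a Dmrt1 difference of 3.11 to 6.14 points for aged ENR minus aged STD. Against held-out young mice, tiles with a higher mean in aged ENR mice included Dbx1, a homeobox gene of interneuron progenitors, and Lepr, the leptin receptor gene, where aged ENR means were 6.06% and 4.18%, against 1.72% and 0.50% in young mice. At Dbx1 all aged ENR mice (3.12% to 9.19%) were above all held-out young mice (0% to 2.95%), while at the other tiles in this paragraph the compared groups overlapped, and none passed the adjusted threshold.

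Among the genes with the most promoter members, most group means were close to or below those of all promoter members, with Bdnf as the main exception. Nectin3, an adhesion protein of synapses, and Rai1, a chromatin-associated protein, had 47 members each, and Gm45133 had 46. Nectin3 had means of 1.55%, 0.56% and 1.62% and Rai1 of 1.10%, 2.41% and 1.54% in held-out young, aged STD and aged ENR mice, and 1 aged STD mouse reached 9.09% in Rai1. Bdnf, the gene of a neurotrophin induced by activity, had 39 members with 2.67% ± 1.796, 5.51% ± 7.51 and 2.03% ± 0.91 (SD), and the aged STD mice ranged from 0.34% to 23.6% with a median of 3.20%. Kdm2a, Bcl2l11 and Abtb2 also had 39 members, Mllt3 had 38 and Cadm1 had 37. Their group means lay between 0.23% and 1.82%.

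In the 13 gene lists, whose members were taken within 1 kb of a start, no member passed the adjusted threshold in limma in any contrast. The background is the mean over all promoter members, 1.81%, 1.88% and 1.66% in held-out young, aged STD and aged ENR mice. Among developmental lists, 217 members at 30 of 39 Hox genes had 2.79% ± 0.46, 2.71% ± 0.49 and 3.50% ± 0.85 (SD). In 938 members at 99 of 137 developmental transcription factor genes the means were 2.70% ± 0.40, 3.32% ± 0.75 and 2.73% ± 0.35 (SD), with overlapping ranges. At an unadjusted p under 0.05, 0 Hox members were higher and 6 lower in aged STD than in held-out young mice, of 143 tested, and 1 developmental factor member was higher and 3 were lower, of 605 tested, beside a background of 1.77% higher and 2.33% lower over all CpGs. Clustered protocadherins, the adhesion genes that neurons choose at random, had few members, 35 at 9 of 56 genes, with 5.89%, 7.95% and 5.82%.

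Ribosomal protein promoters, which are in constant use, were below the background in each group. In 349 members at 44 of 80 ribosomal protein genes of this kind the means were 1.23%, 1.21% and 1.47%. In 209 members at 19 of 24 activity-induced genes, which include Fos, Egr3 and Nr4a1, they were 1.61% ± 0.61, 2.73% ± 1.55 and 1.16% ± 0.53 (SD), and the aged STD mice ranged from 0.70% to 5.44%. The 49 members at 8 of 15 genes of the methylation machinery, Dnmt1, Tet1 and Tet3 among them, had 2.24%, 1.45% and 1.07%. The 19 members at 4 of 8 genes used in epigenetic clocks had 0.71%, 0.88% and 4.13%, where the aged ENR mice ranged from 0% to 17.1%. Of 16 germline genes only Dazl had members, 6 in number, with 0%, 8.07% and 1.13%.

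Genes that mark the cell types of the dentate gyrus differed in how many members they had. Granule neuron genes, Prox1 among them, had 83 members at 8 of 14 genes, which was 84.7% of their CpGs with enough values, and their means were 0.94%, 1.42% and 1.26%. Astrocyte genes had 56 members at 5 of 10 genes with 1.70%, 2.24% and 1.17%, oligodendrocyte genes 30 at 4 of 10 genes with 0.92%, 1.93% and 3.17%, and endothelial genes 16 at 2 of 7 genes with 2.05%, 5.63% and 3.86%. Of 11 microglia genes only P2ry12 had a member, with 33.6%, 32.5% and 11.2%. Of the CpGs with enough values, members were 56.0% for astrocyte, 73.2% for oligodendrocyte, 55.2% for endothelial and 14.3% for microglia genes. At promoters as a whole, 56118 such CpGs were members and 23399 were not. Ranges overlapped between all groups in each of these lists, and the part of cell composition in the levels was not tested.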

How the data were processed

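Dentate gyrus DNA of 24 mice was profiled by RRBS. The authors deposited a methylation percent per CpG and mouse, with strands separate, mapped to mm10, after dropping values under 10 reads or above the 99.9th coverage percentile and CpGs measured in fewer than 3 mice of a group. The submitters' processing notes name Trim Galore 0.4.0, cutadapt 1.8.1, Bismark 0.16.1 and methylKit 1.5.2. Read counts per CpG were not used here, so depth is unknown and no intervals were computed. Number of columns left unused: 0.

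The members and gene lists were chosen with earlier results of these data known. Held-out young STD, aged STD and aged ENR percentages were compared in one limma 3.58.1 fit (R 4.3.3, group means, moderated variance, Benjamini-Hochberg adjustment over all CpGs or tiles, at least 3 mice per group). It was tested on values shuffled among held-out mice, with 50 points added in aged STD mice at 200 members or 200 member tiles. It called 133 of the changed CpGs with 79 false calls, and 199 of the changed tiles with 28 false calls. A larger part of its calls was thus false than the adjusted threshold of 0.05 allows, more so for CpGs than for tiles. Starts came from GENCODE M21. Sequences were read with pysam 0.24.0 from GRCm38, where 694266 of 694279 CpGs on placed chromosomes matched a CG. Other steps used Python 3.11.15 and pandas 2.3.3. P-values set a group difference against the spread within groups, in which differences between mice and read sampling are not separated.

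Named tiles were, per contrast and direction, up to 10 with the largest difference at an unadjusted p under 0.05, and named CpGs up to 5 called with the largest difference; others are named as seen. The 10 genes with the most promoter members and the 13 lists complete the rule. Some results under this rule are not reported here. Replicate numbers are shared across groups but are different mice. Alternatives were other member choices, thresholds, weights, scales, a replicate block and leaving out each mouse.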

Additional observations from a re-analysis of the deposited data

Results flagged for a closer look

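In groups of 4 to 8 mice, 21 sets of values over the members and over all CpGs with enough young values were searched for a mouse far from the others, and 2 cases were found; chance gives about 1 in 20 groups. The share of members above 0 was 14.3% in aged STD replicate 6, against a group median of 6.81%, and this mouse also had the most covered CpGs of its group. The mean methylation of all CpGs with enough young values was 27.8% in aged STD replicate 5, against a group median of 42.3%. The group mean of 40.8% was therefore below the median, and each of the other 7 aged STD mice was above every aged ENR mouse. The same mouse had the lowest mean over the members of its group, 2.30%, and without it the difference in mean methylation of the members was -0.04 points for aged STD minus held-out young STD and -0.38 points for aged ENR minus aged STD. The part of coverage and of this mouse's low level in the members' values was not tested.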

How the results depend on the processing

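Differences over all members were small, and their size or sign moved with the choice and weighting of members. Weighting 1-kb tiles equally gave -0.57 points for aged STD minus held-out young STD, -1.09 for aged ENR minus held-out young STD and -0.52 for aged ENR minus aged STD in mean methylation, -1.17 and -1.92 points for the first 2 of these in the share at 25% or more, and -0.0760 and -0.37 points in the mean of promoter members. Choosing members in young STD mice 5 to 8 gave 0.10 and -0.14 points in the mean against young mice. Members with a value in every held-out mouse gave 0.23 points in the share for aged STD minus held-out young STD and 0.15 points in its promoter mean. A threshold of 10% gave -0.33 points for aged ENR minus held-out young STD and 0.0032 for aged ENR minus aged STD, where the mice of highest coverage had the highest shares. Leaving out each mouse in turn gave mean differences of -0.20 to 0.0032, -0.52 to -0.31 and -0.38 to -0.26 points. The promoter means and the fits without the 3 mice of highest coverage were added after seeing the data, and the latter kept each direction. The promoter mean was lower in aged ENR than in aged STD mice under each alternative run.

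Called members numbered 11 and 12 against young mice. There were 1 and 1 with at least 4 mice per group, 4 and 3 on the arcsine square root scale, 7 and 7 with CpGs of no spread kept, and 3 and 2 with members chosen in young STD mice 5 to 8. Leaving out each mouse gave 3 to 18, 4 to 19 and, for aged ENR minus aged STD, 0 to 1 called members, and 0 to 1, 0 to 1 and 0 called member tiles. Besides the young mice named in the report, 7 were called without aged STD replicate 2 (aged STD) or without aged ENR replicate 4 (aged ENR), 1 for aged ENR minus aged STD without aged STD replicate 4, 5 or 6, and 1 tile without young STD replicate 5. The replicate block gave 0 and 0 called members. Same-numbered mice did not deviate together (mean correlation -0.0039 over 24 pairs, 0 above 0.1), so they share only a number. The cause of these shifts was not tested. No named tile changed direction or passed the threshold under an alternative. The percentages hide their read numbers, so a 0% or 100% at low coverage cannot be told from one at high coverage.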

Other observations

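Members were spread over all autosomes, from 33.8% of the CpGs with enough young values on chromosome 12 to 45.2% on chromosome 11. They were split evenly between strands, with 35027 on the plus and 35093 on the minus strand.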
